A study of Mus musculus with 48 samples.

Results

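Whole spinal cord of old mice was compared with that of young mice across all genes of the deposited count table. The comparison used 16 of the 48 libraries of the series, 8 old and 8 young, and they were taken by their labels and not by any measured value. The old libraries came from C57BL/6 wild-type male mice aged 23 months and the young ones from such mice aged 3 months, and both groups received vehicle. A group of 8 cord libraries from mice of 23 months, given a Csf1r inhibitor for 5 days and left to recover for 7 days, entered the fit only to estimate the spread between libraries. Another 24 libraries of the series are sorted brain microglia, the resident macrophages, from the same 3 kinds of mice. Blood was washed out with a saline perfusion and the whole cord was frozen, per the labels, and polyadenylated RNA was sequenced with a kit that does not keep the strand. Whether the libraries of a group stem from separate animals is not stated in the labels, so p-values measure only the spread between these libraries, which may be technical.

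The cord holds motor neurons and interneurons, the long axon tracts of white matter, the oligodendrocytes that wrap them in myelin, astrocytes, microglia, vessels and meninges. Myelin is rich in cholesterol, and brain and cord make their own, because the blood supplies little. Microglia carry a homeostatic set of surface receptors and, in aged white matter and around debris, a disease-associated set that includes lipid receptors, lysosomal proteins and lectins. In bulk tissue, fewer cells of a type and less RNA per cell cannot be told apart, and this holds for every group of genes described here.

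Levels are given as CPM, counts relative to the TMM-scaled size of the library, and a log2 fold change is old over young. Total counts ran from 22802459 to 31075737 in old and from 23756093 to 32172147 in young libraries. All 20 Hox genes of the cord list were above the filter on low counts and none was called by edgeR or DESeq2 (median −0.05, 0 at an unadjusted p under 0.05, 3 lower by limma-voom, 2 lower without repopulated cord replicate 6), while only 5 of 12 forebrain genes passed that filter, none of them called (median 0.07), so the labelled tissue and its markers matched. Some libraries carried much more tissue from outside the cord than others. The summed level of 7 genes of sensory ganglion neurons, among them Avil, Scn10a and Trpv1, ran from 6.92 to 1015 CPM in old libraries (median 552), against 10.3 to 1863 CPM in young libraries (median 696). It was lowest in old replicate 1 and young replicate 5 and highest in young replicates 1 and 2. Ganglion genes such as Scn10a and Avil led 1 end of the first principal component of the 16 libraries, which held 33.6% of their variance. Its other end was led by genes that include Mmp12, Cst7, Atp6v0d2, Itgax and Gpnmb. The same genes led 1 end of the second component, which held 20.5%. Skeletal muscle transcripts summed to 85.6 to 1117 CPM in old libraries, highest in old replicate 8, against 79.9 to 525 CPM in young ones. The part of ganglion and muscle content in the results was not tested beyond the values given beside them. Among the libraries that serve only for the spread, repopulated cord replicate 6 stood apart, with 2% of its counts in ribosomal protein genes against 0.704% to 0.822% in the other 7 repopulated and the 8 old libraries.

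**Figure D1:**
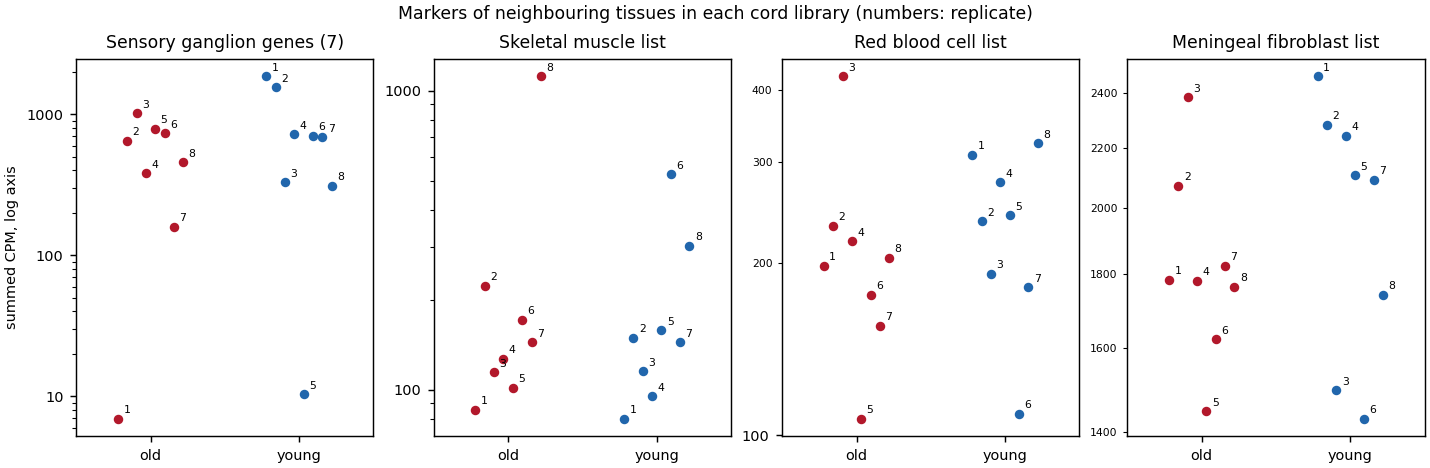
Summed TMM-scaled CPM of markers of sensory ganglion, skeletal muscle, red blood cells and meningeal fibroblasts in each old and each young cord library, on log axes, with replicate numbers beside the points. The ganglion sum ranges from 6.92 to 1015 CPM in old and from 10.3 to 1863 CPM in young libraries, and the groups overlap in all 4 panels.

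An age difference passed the test for 1123 of 18271 genes (6.15%, edgeR's quasi-likelihood test, adjusted p under 0.05), 892 of them higher in old (4.88%) and 231 lower (1.26%). A fold of 2 or more was reached by 290 genes that rose and 24 that fell. All 8 old libraries lay above all 8 young ones for 2.45% of the genes tested and below them for 0.608% (111 genes). The count of falls rested on 1 library that belongs to neither age group: without repopulated cord replicate 6, a choice made after the data had been seen, 2109 genes differed, 1428 higher and 681 lower, and all 1123 were among them. Without the 4 libraries of most extreme ganglion content 967 genes differed, of which 806 were shared. Calls given here are those of the 24 libraries together, and the count without that library is given where it moves a list's calls in 1 direction by over 1.5 times.

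Genes known from phagocytic and lipid-handling macrophages were among those most raised in old cord. Among the 8 largest rises of genes of at least 5 CPM, with genes of no overlap put first, were Mmp12, Atp6v0d2, Gpnmb, Itgax, Ms4a7, Clec7a and Cd22. Mmp12, which encodes the macrophage elastase (chr9:7344381-7369499, GRCm38, plus strand), ran from 4.47 to 10.8 CPM with a median of 7.19 in old libraries, against 0 to 0.184 CPM with a median of 0.0498 in young ones. It was nearly absent from young cord, so its log2 fold change of 6.97 (SE 0.34, adjusted p = 8.3e-13) rests on few young reads. Gpnmb, a transmembrane glycoprotein of lipid-laden macrophages (chr6:49036546-49070929, plus strand), ran from 80.4 to 174 CPM with a median of 127 in old, against 3.23 to 6.5 CPM with a median of 4.42 in young libraries (log2 4.76, SE 0.18, adjusted p = 6.1e-15). The lowest old library was thus far above the highest young one. Atp6v0d2, a subunit of the vacuolar proton pump that acidifies lysosomes, ran from 5.35 to 13.8 CPM (median 9.35) in old and from 0.0424 to 0.444 CPM (median 0.153) in young libraries, with a log2 fold change of 5.60 (SE 0.29).

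Itgax, which encodes the integrin Cd11c, stood at 9.82 to 17 CPM (median 12.6) in old and 0.202 to 1.22 CPM (median 0.527) in young libraries (log2 4.28, SE 0.22). Clec7a, the beta-glucan receptor dectin-1, stood at 15 to 24.7 CPM (median 21.2) in old and 1.19 to 4.17 CPM (median 2.37) in young libraries (log2 3.06, SE 0.16). Both are surface markers of the disease-associated state of microglia. Ms4a7, a membrane protein of macrophages, averaged 7.63 ± 1.36 CPM in old and 0.731 ± 0.287 CPM in young cord (log2 3.38, SE 0.21; SD, n = 8 each, here and for all means that follow). Cd22, a sialic acid receptor that restrains phagocytosis by microglia, averaged 5.28 ± 1.87 CPM in old and 0.639 ± 0.241 CPM in young cord (log2 3.05, SE 0.23).

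**Figure D2:**
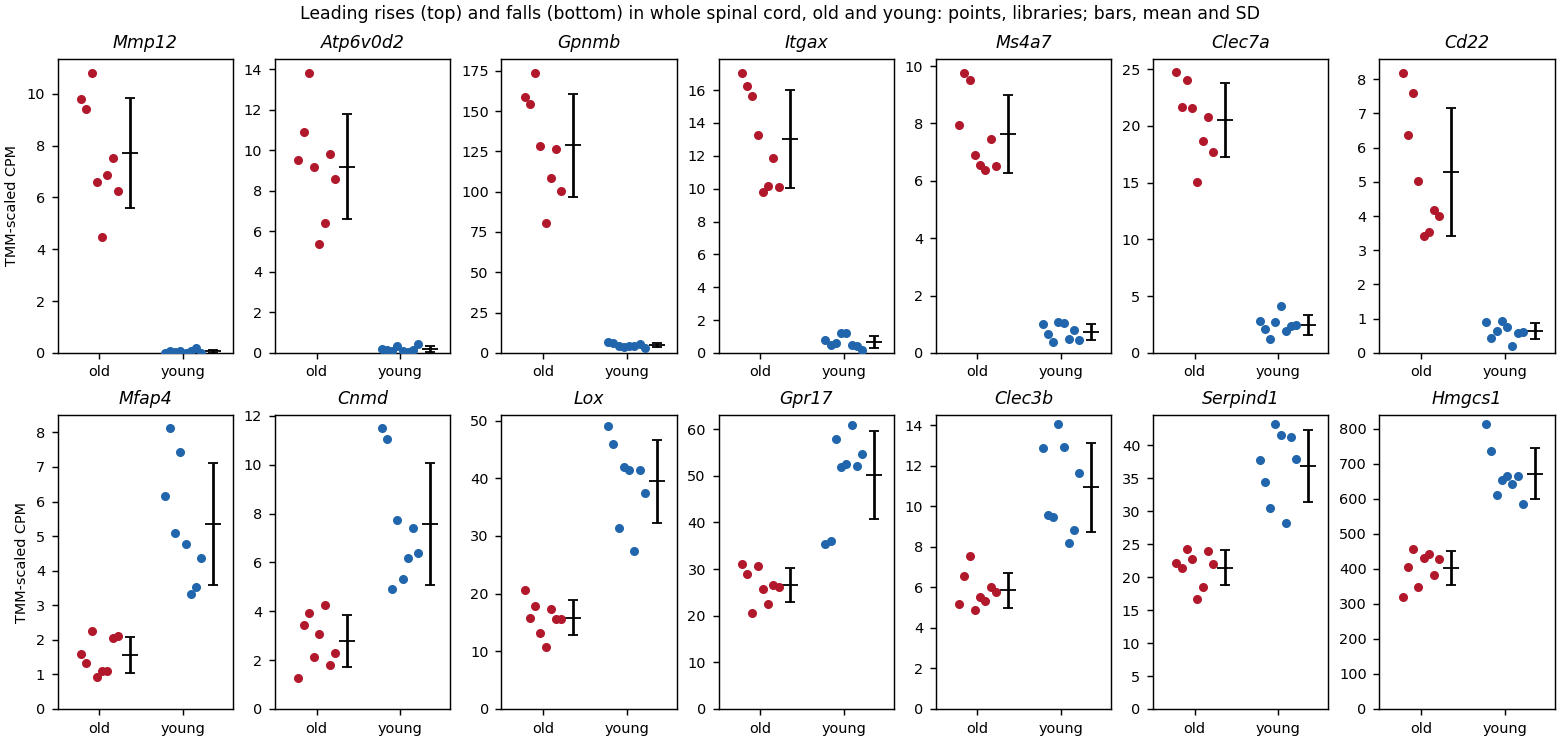
TMM-scaled CPM of 7 genes with the leading rises (top row) and 7 with the leading falls (bottom row) in each library, old left and young right, with the mean and SD beside the points. In all 14 panels the old and young libraries do not overlap, which follows from how these genes were chosen.

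The 8 largest falls, by the same rule, were of another kind, with matrix, oligodendrocyte and sterol genes among them. Mfap4, a protein of elastic fibres, ran from 0.93 to 2.25 CPM (median 1.46) in old and from 3.31 to 8.14 CPM (median 4.94) in young libraries (log2 −1.78, SE 0.22, adjusted p = 3.7e-06). Lox, the lysyl oxidase that cross-links collagen and elastin, ran from 10.8 to 20.7 CPM (median 15.7) in old and from 27.4 to 49 CPM (median 41.4) in young libraries (log2 −1.32, SE 0.14, adjusted p = 1.8e-07). Both lie apart by group, as for all 8. Cnmd, which encodes the cartilage glycoprotein chondromodulin, had a log2 fold change of −1.44 (SE 0.26), Clec3b (tetranectin) of −0.90 (SE 0.15) and Serpind1 (heparin cofactor) of −0.78 (SE 0.11).

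Gpr17 and Hmgcs1 are also among them, and each is described with its cell type. Nerve root tissue moved with several of these falls. The summed level of 5 nerve root genes ran from 2576 to 4408 CPM in old and from 4286 to 6555 CPM in young libraries, so the groups overlapped only at the edge. With that level as a covariate, which removes part of the age difference itself, the calls of Cnmd (log2 −1.20, adjusted p = 0.149), Clec3b (−0.35, adjusted p = 0.457) and Serpind1 (−0.25, adjusted p = 0.356) ended. Nerve root content and age cannot be told apart for these genes.

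**Figure D3:**
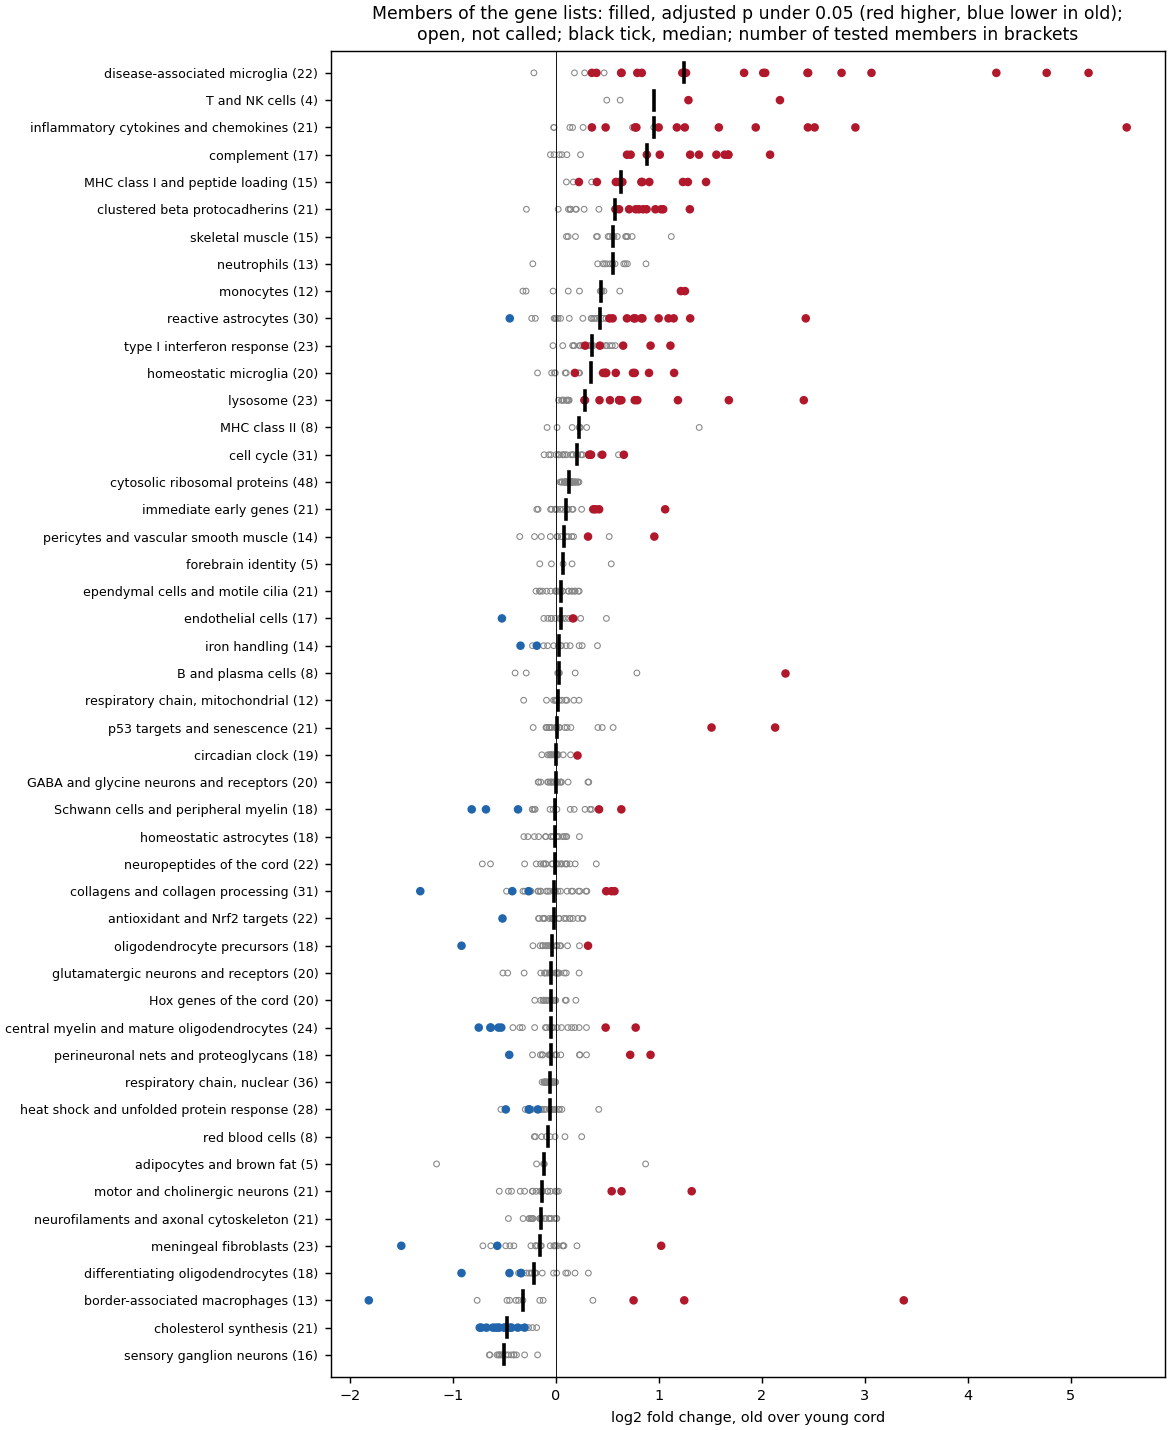
Log2 fold change of old over young cord for each tested member of 48 gene lists, ordered by their median (black tick). Filled points passed the test, red higher and blue lower in old cord, and open points did not. The lists with the highest medians hold microglial and immune genes, and cholesterol synthesis genes lie between −0.74 and −0.19.

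Genes that mark resting microglia rose in 10 of 20 cases and none fell (median log2 0.34, against −0.01 over all genes tested). Fcrls, an Fc receptor-like protein of microglia, ran from 19.6 to 24.7 CPM (median 22.5) in old and from 9.07 to 11.3 CPM (median 9.94) in young libraries (log2 1.15, SE 0.10, adjusted p = 7.4e-09). Cx3cr1, the receptor for the neuronal chemokine fractalkine, ran from 52.6 to 70.1 CPM (median 59.5) in old and from 25.5 to 39.1 CPM (median 32.8) in young libraries (log2 0.90, SE 0.13). Neither gene overlapped between the groups. Gpr34, a lysophospholipid receptor, rose by log2 0.75 (SE 0.10) and P2ry13, a receptor for ADP, by 0.58. Csf1r, the receptor on which microglia depend to survive, averaged 102 ± 10 CPM in old and 73 ± 10.1 CPM in young cord (log2 0.49, SE 0.08, adjusted p = 0.00022), with overlap of the groups through young replicate 5 at 94.6 CPM. The purinergic receptor P2ry12 averaged 19.6 ± 2.01 CPM in old and 18.3 ± 2.63 CPM in young cord (log2 0.10, SE 0.08, adjusted p = 0.67), and Tmem119 (0.19) and Sall1 (0.09), also markers of microglia, did not pass either.

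The disease-associated set rose in large part, with 18 of 22 genes higher, none lower and a median of log2 1.24. For 19 of the 22 all old libraries lay above all young ones. Besides Gpnmb, Itgax and Clec7a, the cystatin gene Cst7, an inhibitor of lysosomal proteases, ran from 2.98 to 4.81 CPM (median 3.93) in old and from 0 to 0.197 CPM (median 0.0978) in young libraries (log2 5.17, SE 0.32). Trem2, the lipid-sensing receptor that drives this state, ran from 20.4 to 28.7 CPM (median 25.4) in old and from 2.92 to 6.12 CPM (median 4.8) in young libraries (log2 2.45, SE 0.21, adjusted p = 8.8e-09). Its signalling adaptor Tyrobp rose by log2 1.83. Cd68, a lysosomal glycoprotein of macrophages, averaged 33.1 ± 5.37 CPM in old and 6.08 ± 0.771 CPM in young cord (log2 2.44). Galectin-3 (Lgals3, log2 2.77), lipoprotein lipase (Lpl, 2.01), the inhibitory receptor Lilrb4a (2.03) and the lipid carrier Apoe (0.63) rose as well. Spp1, osteopontin, averaged 309 ± 30.5 CPM in old and 199 ± 20.4 CPM in young cord (log2 0.64, SE 0.08), and it is also a motor neuron transcript. Igf1 (log2 0.18), Cd9 (−0.21), Cd63 (0.47) and Ctsb (0.28) did not pass.

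Complement and its receptors rose in 11 of 17 genes, with none lower and a median of log2 0.88. C4b, the fourth component, ran from 230 to 328 CPM (median 288) in old and from 88 to 146 CPM (median 105) in young libraries (log2 1.39, SE 0.10, adjusted p = 2.6e-10). Reads of C4b can be shared with its close copy C4a, so its level is less certain. The 3 chains of C1q, the starter of the classical pathway, rose alike, C1qa by log2 1.64, C1qb by 1.56 and C1qc by 1.67 (SE 0.14). The C1qc libraries ran from 63.6 to 88.4 CPM in old and from 20 to 31.5 CPM in young cord. C3 (1.30), the anaphylatoxin receptor C3ar1 (2.08, SE 0.15), C5ar1 (1.01) and the integrin chains Itgam (0.88) and Itgb2 (1.67), which form complement receptor 3, also rose. The regulator Serping1 (−0.02) and properdin (Cfp, −0.05) did not pass.

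Of 21 inflammatory cytokine and chemokine genes 13 rose and none fell (median log2 0.95), though most were low. The chemokine Ccl3 ran from 0.746 to 1.53 CPM (median 1.12) in old and from 0 to 0.499 CPM (median 0.129) in young libraries, and Ccl4 from 0.664 to 1.24 CPM (median 1.02) in old and from 0.0361 to 0.354 CPM (median 0.135) in young libraries (log2 2.45, SE 0.25). Neither overlapped. Ccl2, which draws monocytes, averaged 2.37 ± 0.607 CPM in old and 0.796 ± 0.368 CPM in young cord (log2 1.58, SE 0.24). The B cell chemokine Cxcl13 reached 0.157 to 1.67 CPM in old libraries and at most 0.0356 CPM in young ones, so no fold is given. Tnf (log2 1.94), Il1a (1.25), Tgfb1 (0.77) and the alarmin Il33 (0.48), which oligodendrocytes make, rose, and Il1b (0.95, adjusted p = 0.069) did not pass.

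Lysosomal genes rose in 13 of 23 cases with none lower (median log2 0.28), and those that rose include proteins that are mainly made by macrophages. Lysozyme (Lyz2) ran from 190 to 368 CPM (median 273) in old and from 32.9 to 68.5 CPM (median 54) in young libraries (log2 2.41, SE 0.16, adjusted p = 1.4e-10). Cathepsin S (Ctss), a protease of antigen processing, averaged 153 ± 20.8 CPM in old and 47.9 ± 14.5 CPM in young cord (log2 1.68, SE 0.15), and the membrane protein Laptm5 57.4 ± 6.15 CPM in old and 25.2 ± 3.01 CPM in young cord (log2 1.18). Lysosomal genes that most cells use moved less. The membrane proteins Lamp1 (0.06) and Lamp2 (0.05) and the cholesterol exporters Npc1 (0.13) and Npc2 (0.08) did not pass, while the aspartyl protease Ctsd (0.79), the growth factor progranulin (Grn, 0.61) and the glycosidases Gusb (0.61) and Man2b1 (0.61) rose. The palindrome TCACGTGA, the core of the element that the lysosomal regulator TFEB binds, was searched in the 300 bases around the start sites of RefSeq (250 before to 50 after, GRCm38.p6). It was found for Ctsa, Ctsd and Gla among 18 lysosome genes with a window, and for 1.12% of 27025 genes, and being a palindrome it reads alike on both strands. The 250 bases before the Ctsd start (chr7:142387828-142388077, minus strand) are shown because Ctsd is the called member with the larger change, with the element in capitals.
Ctsd: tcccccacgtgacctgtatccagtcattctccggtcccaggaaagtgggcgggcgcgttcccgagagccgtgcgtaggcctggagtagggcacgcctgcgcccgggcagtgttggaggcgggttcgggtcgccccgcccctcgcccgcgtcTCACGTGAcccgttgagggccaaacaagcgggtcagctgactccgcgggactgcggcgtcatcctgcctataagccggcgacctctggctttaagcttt

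Type I interferon genes rose in part. Of 23 tested 5 rose and none fell (median log2 0.35), and 10 rose without repopulated cord replicate 6. Ifi204, a cytosolic DNA sensor, averaged 3.25 ± 0.722 CPM in old and 1.5 ± 0.592 CPM in young cord (log2 1.11, SE 0.24, adjusted p = 0.0033). Ifit3b, one of the interferon-induced proteins with tetratricopeptide repeats, ran from 10.8 to 17.9 CPM (median 12.8) in old and from 7.12 to 12.3 CPM (median 8) in young libraries (log2 0.65, SE 0.15), with overlap. Xaf1, an interferon-induced antagonist of apoptosis inhibitors, rose by log2 0.43 (SE 0.11) without overlap, and the antiviral GTPase Mx1 by 0.92 (SE 0.26). The call of Mx1 ended when any 1 of 7 single libraries was left out (old 1, 3 and 4 and young 1, 3, 6 and 8, adjusted p from 0.0554 to 0.0832) and on log2(TPM + 1), a scale that is also per length (adjusted p = 0.0808).

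MHC class I and peptide loading genes rose in 12 of 15 cases with none lower (median log2 0.63). Nlrc5, the activator of class I transcription, ran from 7.67 to 12 CPM (median 8.5) in old and from 2.34 to 5.53 CPM (median 3.79) in young libraries (log2 1.23, SE 0.18, adjusted p = 2.3e-05). B2m, the class I light chain, ran from 201 to 296 CPM (median 219) in old and from 114 to 208 CPM (median 139) in young libraries (log2 0.63, SE 0.14), so 1 young library, replicate 5 at 208 CPM, reached the old range. The heavy chains H2-D1 (0.58), H2-K1 (0.61), H2-Q4 (0.91), H2-Q6 (1.46) and H2-Q7 (1.28), the transporters Tap1 (0.64) and Tap2 (0.40) and the proteasome subunits Psmb8 (0.83) and Psmb9 (0.84) rose. Reads of the H2 heavy chains can be shared between near-identical copies, so their levels are uncertain. None of 8 MHC class II genes was called by edgeR (median 0.23, 1 at an unadjusted p under 0.05, and 1 each by limma-voom and DESeq2), and H2-Aa averaged 40.9 CPM in old and 33.3 CPM in young cord.

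The core of the interferon-stimulated response element, the letters GAAA and again GAAA with any 2 bases between them, on either strand, was found in the promoter window of 10 of 16 interferon list genes that have one and in 3 of 13 class I genes (B2m, H2-T22 and H2-T23), against 3.99% of 27025 genes. Of the 5 interferon genes that rose only 2 have a window, and Ifit3b holds the element. The 250 bases before the start are shown for Ifit3b (chr19:34607707-34607956, plus strand) and B2m (chr2:122147437-122147686, plus strand), the called member of each list with the most reads among those that hold it, with the element in capitals. In Ifit3b it stands in 2 places, both read on the other strand. None of the 6 genes with a window among the 8 largest rises holds it.
Ifit3b: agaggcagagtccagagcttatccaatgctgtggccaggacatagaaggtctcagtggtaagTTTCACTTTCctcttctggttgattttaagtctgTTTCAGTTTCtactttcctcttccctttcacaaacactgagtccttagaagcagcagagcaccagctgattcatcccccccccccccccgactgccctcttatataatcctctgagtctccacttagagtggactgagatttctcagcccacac
B2m: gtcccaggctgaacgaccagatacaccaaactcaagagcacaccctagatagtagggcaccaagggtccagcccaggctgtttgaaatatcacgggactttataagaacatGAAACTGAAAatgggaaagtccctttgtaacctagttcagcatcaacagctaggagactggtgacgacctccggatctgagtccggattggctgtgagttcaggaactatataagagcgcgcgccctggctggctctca

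Markers of other blood and immune cells moved in part. Of 4 T and NK cell genes above the filter (16 were matched) the coreceptors Cd8a and Cd4 rose (4 of the 6 above the filter without repopulated cord replicate 6), and Cd8a ran from 0.176 to 1.51 CPM (median 0.688) in old and from 0 to 0.285 CPM (median 0.137) in young libraries (log2 2.17, SE 0.46). Cd4 rose by 1.29, and its call ended when any 1 of 7 libraries was left out (old 1, 2 and 3 and young 3, 4, 6 and 7, adjusted p from 0.0503 to 0.0825). Jchain, which joins secreted antibodies and is made by plasma cells, rose alone among 8 B and plasma cell genes, at 1.61 to 18.7 CPM (median 2.53) in old and 0.764 to 1.28 CPM (median 1.05) in young libraries (log2 2.22, SE 0.49). That rise is uneven, and without the 4 libraries of extreme ganglion content it was not called (adjusted p = 0.0521). None of 13 neutrophil genes was called by edgeR, limma-voom or DESeq2 (median 0.55, 3 at an unadjusted p under 0.05, 11 higher with the nerve root covariate), and their summed level ran from 57.1 to 224 CPM in old and from 51.6 to 176 CPM in young libraries. Of 12 monocyte genes S100a4 (log2 1.21) and the integrin Itgal (1.25) rose, while Ccr2, the receptor that defines recruited monocytes, did not pass (−0.29).

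Of 13 genes of border-associated macrophages, which live in the meninges and around vessels, 3 rose and 1 fell (median −0.32; 2 fell without repopulated cord replicate 6). Mgl2, a galactose-type lectin, ran from 0.906 to 1.56 CPM (median 1.3) in old and from 3.36 to 6.02 CPM (median 4.65) in young libraries (log2 −1.82, SE 0.16, adjusted p = 1.2e-08), and the groups stood apart. The scavenger receptor Stab1 (0.75) and the sialoadhesin Siglec1 (1.25) rose, as did Ms4a7. The mannose receptor Mrc1 (−0.12), Cd163 (−0.45) and Lyve1 (−0.48) did not pass. None of 8 red blood cell genes was called by edgeR, limma-voom or DESeq2 (median −0.07, 0 at an unadjusted p under 0.05).

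Astrocyte genes of the reactive list rose in part. None of 18 homeostatic astrocyte genes was called by edgeR or DESeq2 (median −0.01, 3 at an unadjusted p under 0.05, 3 lower by limma-voom), among them the water channel Aqp4, the glutamate transporter Slc1a2 and glutamine synthetase (Glul). Without repopulated cord replicate 6, 2 of the 18 rose and 2 fell, with the log ganglion covariate 2 fell, and without the 4 libraries of extreme ganglion content 4 fell. Of 30 reactive astrocyte genes 12 rose and 1, the elastic fibre gene Fbln5, fell (median 0.43). Gfap, the intermediate filament that marks reactive astrocytes, ran from 959 to 1373 CPM (median 1136) in old and from 445.8 to 907 CPM (median 693) in young libraries (log2 0.76, SE 0.15, adjusted p = 0.00096), and the lowest old library lay just above the highest young one. Vim, its partner filament, rose by log2 0.69. Timp1, an inhibitor of matrix proteases, averaged 6.82 ± 1.08 CPM in old and 1.27 ± 0.493 CPM in young cord (log2 2.43, SE 0.26), the asparaginase Aspg rose by 1.09 (SE 0.13), the cytokine Clcf1 by 1.14 (SE 0.14) and the acute phase gene Serpina3n by 0.55. Some listed genes are made by other cells as well, such as Cxcl10 and Psmb8, which the cytokine and class I lists hold as well.

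Most genes of cholesterol synthesis fell, while most myelin genes did not pass. All 21 cholesterol synthesis genes had negative log2 fold changes, 14 of them called (median log2 −0.47, range −0.74 to −0.19), 19 without repopulated cord replicate 6 and 9 without the 4 libraries of extreme ganglion content. With the nerve root covariate 8 fell, as did 8 on log2(TPM + 1). Hmgcs1, which makes the precursor of mevalonate (chr13:119690379-119708260, plus strand), ran from 320 to 458 CPM (median 416.5) in old and from 586 to 814 CPM (median 660) in young libraries (log2 −0.74, SE 0.09, adjusted p = 1.3e-06). Cyp51, the lanosterol demethylase, ran from 93.2 to 116 CPM (median 104) in old and from 150 to 165 CPM (median 159) in young libraries (log2 −0.59, SE 0.05, adjusted p = 1.2e-08). The groups lay far apart in both. The enzymes Idi1 (−0.72), Msmo1 (−0.56), Sqle (−0.55) and Sc5d (−0.47, SE 0.07) fell. Insig1, which is not an enzyme but holds the pathway's regulators back, fell as well (−0.30, SE 0.03). The regulator Srebf2 (−0.23, adjusted p = 0.085), Fdps, Mvk, Pmvk, Dhcr7 and Ebp did not pass.

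**Figure D4:**
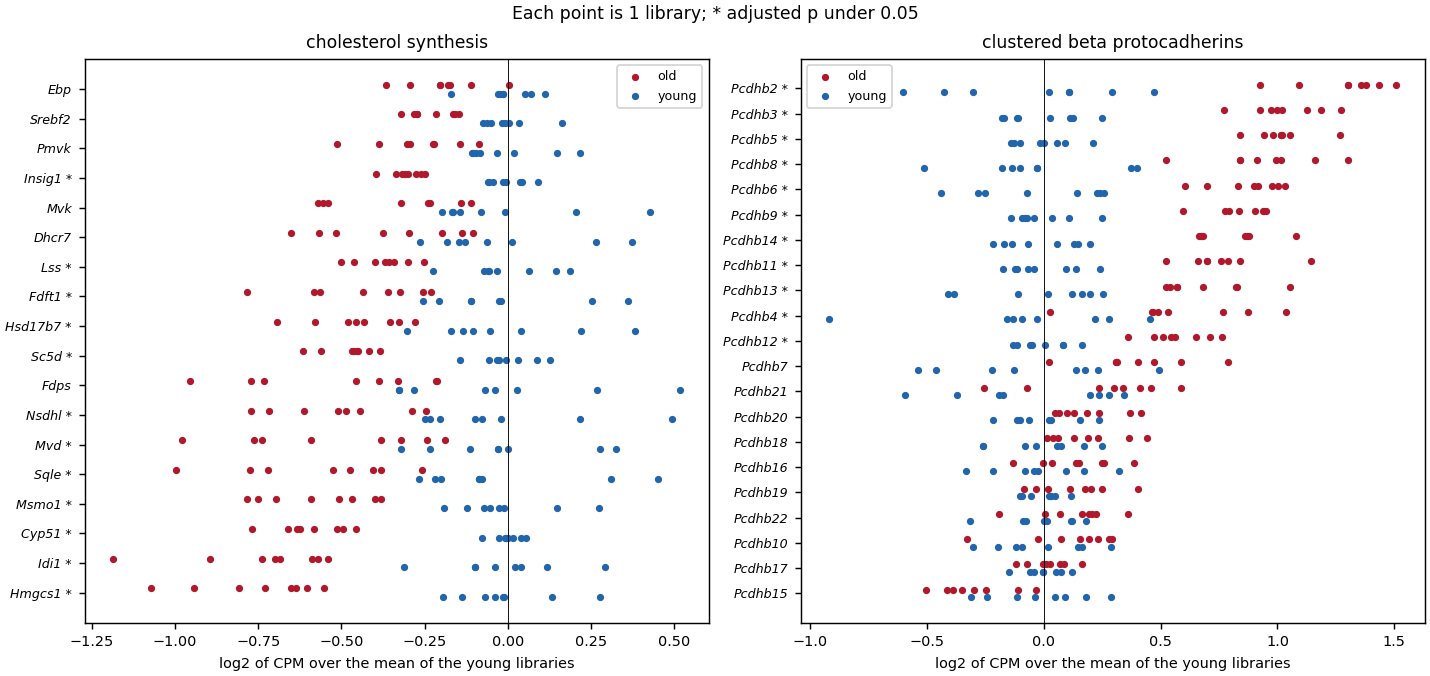
Log2 of CPM over the mean of the 8 young libraries for each old (red) and young (blue) library, for 18 cholesterol synthesis genes (left) and clustered beta protocadherins (right), with an asterisk at genes that passed the test. Most old points lie left of most young ones for sterol genes, and for the 11 protocadherins that passed most old points lie to the right.

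One form of the sterol regulatory element, TCACNCCAC on either strand, was found in 1 of 15 cholesterol synthesis genes with a promoter window, Hmgcs1, and in 1.44% of 27025 genes. The 250 bases before its start (chr13:119690101-119690350, plus strand) are shown with the element in capitals, since Hmgcs1 is both the leading fall of the list and its match.
Hmgcs1: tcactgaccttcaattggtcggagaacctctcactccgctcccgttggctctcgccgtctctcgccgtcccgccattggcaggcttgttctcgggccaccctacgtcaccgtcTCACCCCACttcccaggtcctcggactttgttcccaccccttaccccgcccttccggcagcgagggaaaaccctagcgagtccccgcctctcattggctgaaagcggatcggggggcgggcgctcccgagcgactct

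Of 24 genes of central myelin and mature oligodendrocytes 5 fell and 2 rose (median −0.05), and 9 fell and 3 rose without repopulated cord replicate 6. The falls were in the enzymes that make myelin lipids, Fa2h, which hydroxylates fatty acids, and Ugt8a, which makes galactocerebroside, and in Mal, Cldn11 and Ptgds. Fa2h ran from 106 to 134 CPM (median 119) in old and from 164 to 224 CPM (median 182) in young libraries (log2 −0.63, SE 0.07, adjusted p = 4.6e-07), and Ugt8a from 187 to 255 CPM (median 223) in old and from 291 to 432.4 CPM (median 354) in young libraries (log2 −0.64, SE 0.09). Neither gene overlapped between groups. With the nerve root covariate the calls of Mal (−0.29, adjusted p = 0.124) and Ugt8a (−0.49, adjusted p = 0.055) ended. Apod, a lipid carrier of oligodendrocytes and Schwann cells, ran from 1969 to 3364 CPM in old and from 1160 to 1717 CPM in young libraries (log2 0.77, SE 0.14). Myelin basic protein averaged 9246 ± 623 CPM in old and 9420 ± 1364 CPM in young cord (Mbp, log2 −0.03, SE 0.09), and Mog (−0.42, adjusted p = 0.063) did not pass.

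Genes of the step between precursor and mature oligodendrocyte fell in 4 of 18 cases with none higher (median −0.22), and 6 fell and 1 rose without repopulated cord replicate 6. Gpr17, a receptor of newly committed oligodendrocytes that is lost as they mature, ran from 20.6 to 31.2 CPM (median 26.4) in old and from 35.4 to 61 CPM (median 52.2) in young libraries (log2 −0.92, SE 0.12, adjusted p = 5.6e-06), with no overlap. Rnf122 (−0.45, SE 0.08), Sema5a (−0.34) and the kinesin Kif19a (−0.34) were the others, and with the nerve root covariate none of these 3 was called and Kif19a turned to 0.19. Of 18 precursor genes Gpr17 fell and Cspg4, the NG2 proteoglycan that pericytes also make, rose by 0.31 (SE 0.08). Pdgfra, the receptor that defines precursors, did not pass (−0.06), nor did Olig2 and Sox10.

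Of 18 genes of Schwann cells and peripheral myelin 3 fell and 2 rose (median −0.01; 4 rose without repopulated cord replicate 6). Pmp22, a membrane protein of myelinating Schwann cells, averaged 1301 ± 206 CPM in old and 2084 ± 324 CPM in young cord (−0.68, SE 0.11), and Cldn19, a claudin of Schwann cells, fell by 0.37. With the nerve root covariate Pmp22 turned to 0.03 (adjusted p = 0.878) and Cldn19 to 0.23 (adjusted p = 0.0111). Under that covariate 11 of the 18 genes rose and 1 fell (median 0.57). It also moved lists of other tissues and functions. The median became 1.36 for red blood cell genes and 0.50 for ribosomal protein genes, and −0.18 for homeostatic astrocyte genes. The shift is thus not particular to peripheral myelin genes. The Schwann cell genes Prx (−0.23), Ncmap (0.18), Pmp2 (0.33) and Egr2 (0.42) did not pass, while Gldn (0.42) and Fxyd3 (0.63) rose.

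Few neuronal transcripts passed the test. Of 21 motor and cholinergic neuron genes 3 rose and none fell (median −0.13), and those 3, Spp1, the annexin Anxa4 (log2 0.54) and the growth factor Gdnf (1.32, at 0.616 ± 0.162 CPM in old and 0.242 ± 0.103 CPM in young cord), are made by other cells too. Chat, the enzyme that makes acetylcholine, averaged 15.1 ± 1.59 CPM in old and 15.9 ± 3.41 CPM in young cord (log2 −0.08, SE 0.14), and Slc18a3, Slc5a7, Isl1 and Mnx1 did not pass. No gene was called among 21 neurofilament and axonal cytoskeleton genes (median −0.14, 19 of them with negative values), 20 glutamatergic genes (−0.04), 20 genes of GABA and glycine neurons (−0.00375), 22 neuropeptides of the cord (−0.01) and 16 sensory ganglion genes (−0.50). At an unadjusted p under 0.05 these lists held 4, 0, 3, 1 and 0 genes in that order, limma-voom called 1, 0, 2, 1 and 0 of them, all lower, and DESeq2 called 1, in the GABA and glycine list. Nefl, the light neurofilament chain, averaged 1719 ± 302 CPM in old and 2145 ± 541 CPM in young cord (log2 −0.32, SE 0.15, adjusted p = 0.33); with the ganglion level as a covariate it was called lower on the log scale of that level (−0.24, adjusted p = 0.021) and not on the linear scale. Without repopulated cord replicate 6 limited calls appeared, 1 lower in the neurofilament list and 2 lower in the GABA and glycine list.

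Vessel, meningeal and matrix genes changed singly. Of 17 endothelial genes Mfsd2a, the transporter of omega-3 lipids at the barrier, fell and Pecam1 rose by 0.17 (SE 0.05), and 3 rose without repopulated cord replicate 6. The call of Pecam1 ended when any 1 of 11 single libraries was left out (all but old 5, 6 and 8 and young 5 and 8, adjusted p from 0.0558 to 0.0883). Mfsd2a ran from 31.3 to 36.1 CPM (median 34) in old and from 44.6 to 55.4 CPM (median 48.7) in young libraries (log2 −0.52, SE 0.05, adjusted p = 8.7e-08). That is a narrow spread within each group with a clear gap between them. Of 14 genes of pericytes and vascular smooth muscle Anpep, the aminopeptidase Cd13, which macrophages also carry, rose by 0.96 (SE 0.12), and Cspg4 rose too. Among 23 meningeal fibroblast genes the proteoglycan Lum rose by 1.02 (SE 0.16) and the transporters Slc22a6 (−1.50, SE 0.33) and Slc6a13 (−0.57, SE 0.17, adjusted p = 0.0491) fell. The call of Slc6a13 ended in 22 of 31 alternatives, among them total-count scaling (−0.54, adjusted p = 0.0722) and limma-voom (−0.50, adjusted p = 0.0533), and it turned to 0.27 with the nerve root covariate, where Slc22a6 was not called either (−0.67, adjusted p = 0.613).

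Of 31 collagen and collagen processing genes Col27a1 (log2 0.57, SE 0.08), Col18a1 (0.54, SE 0.10) and Col5a2 (0.49) rose, and Lox, the proline hydroxylase P4ha1 (−0.27, SE 0.04) and the basement membrane chain Col4a1 (−0.42) fell, with 6 lower without repopulated cord replicate 6. P4ha1 was not called with the nerve root covariate (−0.13, adjusted p = 0.357) or on log2(TPM + 1) (adjusted p = 0.225). The fibrillar chains Col1a1 (−0.02), Col1a2 (−0.15) and Col3a1 (−0.24) did not pass. In the list of perineuronal nets and proteoglycans (18 genes) tenascin C (Tnc, 0.72, SE 0.14) and the hyaluronan synthase Has2 (0.92, SE 0.22) rose and neurocan (Ncan, −0.45, SE 0.09) fell, while aggrecan (Acan, −0.05) did not pass; without repopulated cord replicate 6, 4 rose and 2 fell. None of 21 ependymal and motile cilia genes was called by edgeR, limma-voom or DESeq2 (median 0.05, 2 at an unadjusted p under 0.05), and none of 5 adipocyte and brown fat genes (−0.12) or 15 muscle genes (0.55), with 0 at an unadjusted p under 0.05 in both lists and none by the other 2 tools.

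Beta protocadherins, single-exon genes in 1 cluster on chromosome 18 whose proteins give neurons a surface identity, rose in 11 of 21 cases with none lower (median log2 0.58). For 10 of the 21 the groups did not overlap. Pcdhb3 ran from 9.72 to 13.8 CPM (median 11.4) in old and from 5.02 to 6.76 CPM (median 5.54) in young libraries (log2 1.04, SE 0.08, adjusted p = 1.3e-09), and Pcdhb9 from 14.5 to 18.5 CPM (median 17.5) in old and from 8.7 to 11.4 CPM (median 9.23) in young libraries (log2 0.85, SE 0.08). The rises were in Pcdhb2 to Pcdhb6, Pcdhb8, Pcdhb9 and Pcdhb11 to Pcdhb14, with Pcdhb2 at 1.30, Pcdhb5 at 1.02 (SE 0.09) and Pcdhb14 at 0.81 (SE 0.10). Pcdhb7 (0.42) and Pcdhb10 (0.12), which lie between them, and Pcdhb15 to Pcdhb22 (−0.29 to 0.27) did not pass. The paralogs are alike in sequence, so reads may be shared, and the kit does not keep the strand. With the nerve root covariate 4 were called. Without repopulated cord replicate 6, and also by limma-voom, 13 were higher and 1 was lower.

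Cell cycle genes rose in part, and few damage genes passed. Of 31 cell cycle genes 5 rose and none fell (median 0.20), while 4.88% of all genes tested were called higher. Positive values were found for 28 of the 31, and 11 had an unadjusted p under 0.05. The 5 were the helicase subunits Mcm2, Mcm3 and Mcm6, Ccna2 and the topoisomerase Top2a. Top2a averaged 4.33 ± 1.08 CPM in old and 2.75 ± 0.685 CPM in young cord (log2 0.66, SE 0.19). When single libraries were left out 2 to 6 of the list rose. Top2a lost its call without any 1 of 8 libraries (old 1, 2, 3, 4 and 7 and young 3, 6 and 7, adjusted p from 0.0511 to 0.0777) and with the replicate block (adjusted p = 0.0542), and Mcm6 without any 1 of 5 (old 1, 2 and 7 and young 3 and 6, adjusted p from 0.063 to 0.0686). Mki67 (0.35, adjusted p = 0.52) did not pass. Of 21 p53 and senescence genes 2 rose and none fell (median 0.01, 12 with positive values), and 4 rose without repopulated cord replicate 6. Cdkn2a, which encodes the senescence marker p16 and the tumour suppressor Arf, ran from 1.25 to 2.5 CPM (median 1.67) in old and from 0.181 to 0.699 CPM (median 0.334) in young libraries (log2 2.13, SE 0.28, adjusted p = 5.8e-06). The groups did not overlap. Cdkn1a (−0.10) and the other classical p53 targets Mdm2, Ccng1 and Bax did not pass, and Eda2r averaged 1.54 ± 0.296 CPM in old and 1.05 ± 0.173 CPM in young cord (log2 0.55, SE 0.23, adjusted p = 0.21). Without repopulated cord replicate 6 the call of Eda2r was made (adjusted p = 0.0177).

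Among immediate early genes 4 of 21 rose, the injury-linked factor Atf3 by log2 1.06 (SE 0.17) and Fosl2, Junb and Fosb by 0.36 to 0.42. Atf3 ran from 6.36 to 9.84 CPM (median 7.3) in old and from 2.1 to 5.5 CPM (median 3.46) in young libraries, with no overlap, while Fos (0.12), Egr1 (0.01) and Arc (0.01) did not pass. The calls of Junb and Fosb ended without most single libraries (adjusted p from 0.0524 to 0.133). Of 28 heat shock and unfolded protein response genes 4 fell, Hsph1 (−0.26, SE 0.05), Hspa1a (−0.49), Hsp90aa1 (−0.18) and Dnajb1 (−0.26), none of which was called on log2(TPM + 1). The calls of Hspa1a, Hsp90aa1 and Dnajb1 also ended without some single libraries (adjusted p from 0.0504 to 0.0839). In the antioxidant list the cystine transporter Slc7a11 fell (−0.53, SE 0.14, 1 of 22), and in the iron list the transferrin receptor Tfrc (−0.34, SE 0.05) and Aco1 (−0.19, SE 0.04) fell (2 of 14). None of these 3 was called on log2(TPM + 1). With the nerve root covariate Slc7a11 (−0.18, adjusted p = 0.762) and Aco1 (adjusted p = 0.17) were not called, nor was Aco1 under total-count scaling (adjusted p = 0.0605). Without repopulated cord replicate 6, 3 rose and 2 fell in the antioxidant list and 2 rose and 3 fell in the iron list. Bhlhe41 was the 1 of 19 clock genes called (2 without repopulated cord replicate 6), by 0.20, and it is also expressed in microglia. None of 36 nuclear respiratory chain genes was called by edgeR, though all 36 had negative values (median −0.06, 1 at an unadjusted p under 0.05, 5 lower by limma-voom, 1 by DESeq2 and 5 without repopulated cord replicate 6). None of 12 mitochondrially encoded ones was called by any of the 3 tools (median 0.02, 0 at an unadjusted p under 0.05). None of 48 ribosomal protein genes was called by edgeR, all with positive values (median 0.13, 0 at an unadjusted p under 0.05, 15 higher by limma-voom and 2 by DESeq2). Without repopulated cord replicate 6, which has the highest ribosomal share, 20 ribosomal protein genes were called higher.

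Genes that rose in old cord were more often ones that microglia express above the level of cord than genes at large were. For this comparison, levels in repopulated microglia sorted from brain were set against those in repopulated cord (log2 TPM). At least 4-fold higher levels in microglia were found for 366 of 892 genes that rose (41%) and for 5 of 231 that fell (2.16%), against 4.89% of all genes tested. Another 257 of the 892 (28.8%) were at least 4-fold lower in microglia. Of the 290 genes that rose at least 2-fold, 53.8% were at least 4-fold higher in microglia and 20% at least 4-fold lower. Conversely, 69.3% of the genes that fell were at least 4-fold lower in microglia than in cord, against 45.5% of all genes. Among the leading rises named above, Gpnmb (log2 −2.93), Atp6v0d2 (−1.70) and Mmp12 (−0.42) were lower in repopulated microglia than in repopulated cord. Itgax (3.8), Cd22 (3.6), Clec7a (3.5) and Ms4a7 (0.56) were higher there. In old libraries, with each tissue scaled alone, Mmp12 went the other way, with a mean of 38 CPM in microglia and 7.72 CPM in cord. Gpnmb averaged 46.7 CPM in old microglia and 129 CPM in old cord, and Atp6v0d2 1.26 CPM and 9.2 CPM. Which cells of the cord made these transcripts was not tested. The old and young libraries do not enter the log2 levels of repopulated microglia over cord, but the mice of both repopulated groups were also aged 23 months. The repopulated cord libraries also entered the spread behind the calls, so this measure is not independent of the age comparison.

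The age difference in cord was then set against that in sorted brain microglia (8 old and 8 young libraries, which are other libraries and another region). Of 19110 genes tested, 3913 (20.5%) had an age difference that itself differed between the tissues by the interaction test, 15% more positive in cord and 5.44% more negative. Of the 1123 genes called in cord, 501 were among them, 392 more positive and 109 more negative in cord. In that fit the 2 tissues share 1 estimate of the spread, and with the spread of each tissue, an addition made after the data had been seen, 1716 of 13731 genes (12.5%) differed, 905 of them more positive in cord. The median of all genes in the 48-library fit was −0.0288 in cord and −0.145 in microglia. Log2 values per tissue given here are from each tissue fitted alone and interactions from the 48-library fit, so an interaction is not their exact difference. The labels do not tie cords and brains to the same mice.

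Homeostatic microglial genes were nearly all more positive in cord. Their median was log2 0.34 in cord and −0.51 in sorted microglia, where 19 of 20 fell (21.7% of all genes were called in microglia alone), and for 19 of 20 the interaction was called, more positive in cord (18 with the spread of each tissue). Fcrls rose by 1.15 (SE 0.10) in cord and had a log2 fold change of −0.78 in microglia (interaction 2.09), and Csf1r rose by 0.49 in cord and had −0.53 in microglia (interaction 1.18). C1q, Trem2 and Cd68 rose in cord and did not pass in microglia, with log2 2.45 in cord and −0.10 in microglia for Trem2 (interaction 2.71), and 2.44 in cord and 0.07 in microglia for Cd68 (2.53). Of the disease-associated genes 7 were more positive and 9 more negative in cord. Those more negative include Spp1, at 0.64 in cord and 5.99 in microglia (interaction −5.18).

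Interferon, blood cell and sterol genes differed the other way. Of 23 interferon genes 16 were more negative in cord (medians 0.35 in cord and 1.69 in microglia), as were 11 of 13 neutrophil genes (0.55 and 2.89) and 9 of 12 monocyte genes (0.43 and 2.21). For cholesterol synthesis 16 of 21 were more negative in cord, with a median of −0.47 in cord and 0.44 in microglia, where 11 rose, so the list moved in opposite directions in the 2 tissues. Cyp51, for example, had −0.59 in cord and 1.01 in microglia (interaction −1.42). Lox fell in cord by 1.32 and had 4.02 in microglia (interaction −5.16). Atp6v0d2 had 5.60 in cord and 2.93 in microglia (interaction 2.77, adjusted p = 0.0277, and 0.0632 with the spread of each tissue), and limma-voom gave 1.25 (adjusted p = 0.44).

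**Figure D5:**
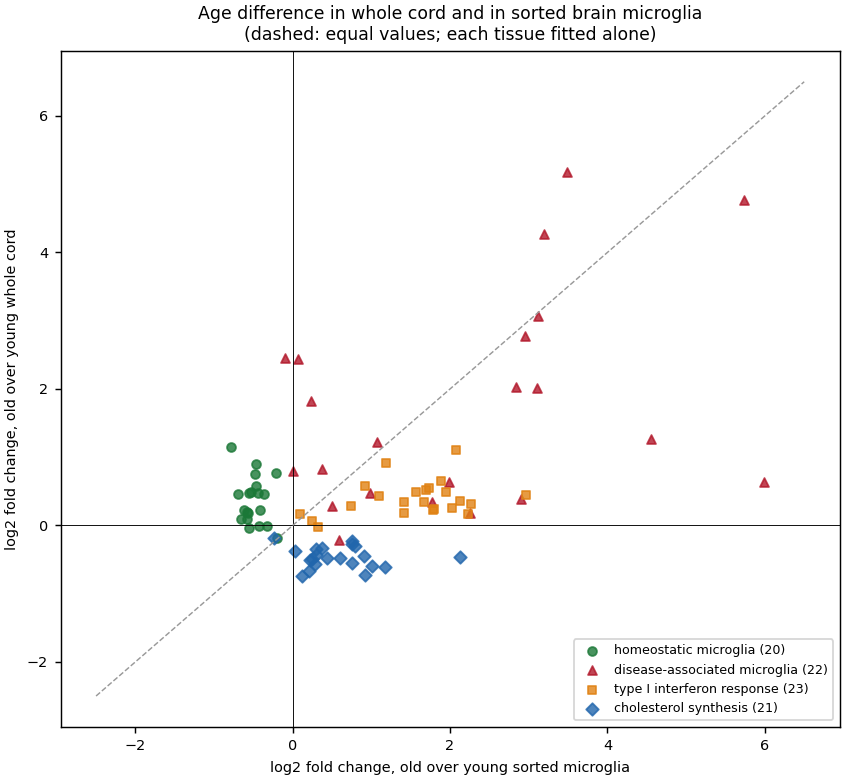
Log2 fold change of old over young whole cord (vertical axis) against that of old over young sorted brain microglia (horizontal axis) for members of 4 lists, each tissue fitted alone, with equal values on the dashed line. Homeostatic microglial genes lie mostly left of 0 and mostly above it, cholesterol synthesis genes lie below 0 and mostly right of it, and interferon genes lie mainly below the line.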

How the data were processed

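RNA of whole cord was sequenced in 8 old and 8 young libraries, per the labels. The authors deposited read counts per gene, which were used as deposited, and TPM values, which they had scaled by gene length and used here only for an alternative test and for levels between tissues. FPKM values, also deposited, were left aside. STAR 2.5.2b and GRCm38.p5 are named in the submitters' processing notes, without a role; the counting tool is not given in the sources used here.

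Counts were TMM-scaled and tested with edgeR 4.0.16 (R 4.3.3) by the quasi-likelihood test over 24 cord libraries, old minus young, after its filter on low counts (minimum count 10, minimum total 15), with Benjamini-Hochberg adjustment at 0.05. The interaction of age and tissue used all 48 libraries. Alternatives used DESeq2 1.42.0 and limma 3.58.1. The procedure was tested on simulated data. Total counts of the old and young cord libraries ran from 22802459 to 32172147, and those of the repopulated cord libraries from 15909868 to 33004806. Their number limits the precision of low genes. In a chi-square comparison of the 56 pairs within a group, the statistic per gene was 4.15 to 93.4, so no pair was taken for 1 library.

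Named genes were the 8 largest rises and falls of at least 5 CPM without predicted names, taking first those with no overlap, up to 4 called members of each of 48 lists by adjusted p, a panel of 10, and 8 genes of the interaction. Of the genes that this rule names, some are not reported here. Further list members are named for context, chosen after their values were seen. The comparison and the lists (961 entries, 7 unmatched, 37 genes in more than 1 list) were chosen with earlier results of these data known. Positions are from GENCODE (GRCm38) and promoter sequences from RefSeq (GRCm38.p6). The searches for the sterol and lysosomal elements were chosen after the data had been seen.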

Additional observations from a re-analysis of the deposited data

Results flagged for a closer look

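Of 72 sets of 8 libraries checked for a library far from the rest, 5 held one, and chance gives about 1 in 20. Mmp12 stood at 0.184 CPM in young replicate 7, C4b at 146 CPM and Csf1r at 94.6 CPM in young replicate 5, summed skeletal muscle genes at 1117 CPM in old replicate 8, and summed red blood cell genes at 423.1 CPM in old replicate 3.

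The age difference differed between cord and sorted microglia by the interaction test for 8 genes named by rule. More positive in cord were Sowahb (log2 4.46), Tll1 (3.15), Atp6v0d2 (2.77) and Trem2 (2.71), and more negative were Wisp1 (−5.78), Spp1 (−5.18), Lox (−5.16) and Cyp3a13 (−4.30). Sowahb, Tll1, Wisp1 and Cyp3a13 did not pass the filter on low counts in microglia alone, so their values rest on few reads there. Trem2, Spp1 and Lox were also called with the spread of each tissue, and Atp6v0d2 was not. limma-voom gave 0.104 for Tll1 (adjusted p = 0.925) and 1.25 for Atp6v0d2 (adjusted p = 0.44). With DESeq2 size factors and with the replicate block Tll1 (adjusted p = 0.0691 and 0.0722) and Cyp3a13 (0.0539 and 0.0582) were not called.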

How the results depend on the processing

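The 1123 calls in cord became 943 to 1170 without single libraries, 759 to 934 of them higher and 184 to 236 lower, and 78.3% to 80.9% higher. limma-voom called 2430 genes (1573 higher, 857 lower, 64.7% higher), the 16 libraries alone 1844 (674 lower, 63.4%) and the fit without repopulated cord replicate 6 2109 (1428 higher, 681 lower, 67.7%). DESeq2 gave 390 lower (72.2% higher), the linear ganglion covariate 450 lower (70.5%), log2(TPM + 1) 92 lower (88.8%) and log2(TPM + 0.1) 82 lower (89.6%). The share higher was 86% under total-count scaling, 85.8% with the nerve root covariate and 75.3% with the log ganglion covariate. The median of all genes, −0.00831, became 0.024 under total-count scaling, 0.0174 and 0.0202 on both TPM scales, 0.018 with the nerve root covariate and −0.012 to −0.00519 without single libraries. The nerve root covariate turned Kif19a to 0.192, Pmp22 to 0.0277, Cldn19 to 0.229 and Slc6a13 to 0.273. The cause was not tested. Insig1, Sc5d, Ncan, Cldn19, Cspg4, Mcm2, Fosl2 and Bhlhe41 lost their calls on both TPM scales (adjusted p from 0.101 to 0.359). With the replicate block 953 genes were called, 935 of them shared with the 1123, and the interaction gave 3501; same-numbered libraries did not pair (correlation of deviations −0.493 to 0.295 over 8 pairs, 2 over 0.1, 0 best with their own number). With the spread of each tissue the interaction count was 1716, against 3913. Depth limits genes near 0 in 1 group, such as Mmp12 and Cst7.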

Other observations

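Further families, chosen after values had been seen, moved as follows. Of 11 Toll-like receptor genes 8 rose (median log2 1.06), with Tlr2 at 7.66 ± 1.23 CPM in old and 2.81 ± 0.639 CPM in young cord (log2 1.45, SE 0.13). All 5 genes of the Fc gamma receptors and their adaptor rose (median 1.40), and Fcgr2b, the inhibitory receptor, averaged 14.7 ± 2.43 CPM in old and 4.23 ± 0.848 CPM in young cord. Of 6 NADPH oxidase genes 5 rose, led by Cybb, the catalytic chain (1.67, SE 0.16). Among 15 myeloid transcription factors 7 rose, including Spi1 (1.10) and Irf8 (1.20), while Tfeb (0.00) and Mitf (0.11) did not pass. Of 7 genes of colony-stimulating factors and their receptors 5 rose, with Csf2rb2 at 2.36 and Csf3r at 1.30, while Il34, a ligand of Csf1r, did not pass (−0.02). Reads of Csf2rb2 can be shared with its close copy Csf2rb.

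Of 23 genes of fatty acid and sphingolipid synthesis 10 fell and Srebf1, a regulator of the pathway, rose (0.37, SE 0.04; median of the list −0.20). Elovl6, an elongase, averaged 118 ± 2.65 CPM in old and 166 ± 10.2 CPM in young cord (log2 −0.49, SE 0.04), and Acss2, which makes acetyl-CoA from acetate, averaged 62.2 ± 2.78 CPM in old and 84.1 ± 1.64 CPM in young cord (−0.43, SE 0.04). Of 17 elastic fibre genes 5 fell (Mfap4, Lox, Eln at −0.45, Fbln1 at −0.73 and Fbln5 at −0.45) and none rose. None of 33 alpha and gamma protocadherins was called, and their values ran from −0.53 to 0.63. Their median was 0.11, against 0.58 for the beta cluster, and this difference was not tested. For the gamma genes Pcdhga6 (0.48), Pcdhga7 (0.56) and Pcdhgb2 (0.42) all old libraries lay above all young ones, as for 2.45% of all genes tested.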
